A study of Homo sapiens with 8 samples.

Results

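PDYN, CCN3, GAL, SUGCT and TCEA3 are 5 protein-coding genes that were expressed in vehicle-treated U-937 cells and strongly lower after all-trans retinoic acid (ATRA). They were found by their symbol among 61125 rows of the deposited tables, and each was 1 of the 14995 genes with enough counts to be tested. The genes were chosen by their measured levels, as expressed in vehicle and strongly lower with ATRA, so the difference between ATRA and vehicle is given as a description without a test. The libraries behind that choice are not named, and those of ATRA and vehicle are taken here as the ones used. If the LAA+ATRA and LAA libraries also had a part in it, the p-values between them are too small. U-937 is a human pro-monocytic leukemia line, and RNA was sequenced after 72 h in 4 groups of 2 libraries each. The groups were 250 µM L-ascorbic acid (LAA) together with 1 µM ATRA (LAA+ATRA), ATRA at the same dose, LAA at the same dose, and vehicle, made of PBS and DMSO. All groups came from the same line in the same medium with fetal bovine serum, and the labels do not say whether the replicates were separate cultures, so the p-values rest on the variation among these libraries alone, and that variation may be technical.

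ATRA binds retinoic acid receptors, which act on DNA as partners of retinoid X receptors, and it drives myeloid leukemia cells to mature. Prodynorphin (PDYN) and galanin (GAL) are precursors of neuropeptides, which are cut from a longer chain in the secretory pathway and act on G protein-coupled receptors of neighbouring cells. CCN3 is a secreted matricellular protein that binds integrins. The other genes encode no secreted product: SUGCT is a mitochondrial enzyme that moves coenzyme A from succinyl-CoA to glutarate, and TCEA3 belongs to the TFIIS family, which helps stalled RNA polymerase II resume elongation. All 5 genes kept some counts in every ATRA library, so their level there was low and not absent.

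Library totals ran from 18462552 to 24166770 estimated counts. Levels are given as CPM, the read count scaled to the normalised library size, with the estimated counts beside them rounded to whole numbers, and group means are given with the SD of n = 2 libraries. Of 10 promonocytic and monocyte markers, 9 were at 1 CPM or more in every library, whereas the granule enzyme MPO lay between 0.158 and 0.839 CPM. Their summed level was 3750 to 3840 CPM with LAA+ATRA and 4310 to 4580 with ATRA, against 2090 to 2230 with LAA and 1970 to 2060 in vehicle. A large part of it was ITGB2, at 1560 CPM with LAA+ATRA, 2330 with ATRA, 754 with LAA and 806 in vehicle. FCGR2A went the other way, at 26.8 CPM with LAA+ATRA against 37.1 with LAA, and 38.8 with ATRA against 50.6 in vehicle. Of 10 neuroendocrine and neuronal markers, CHGA, SYT1 and STMN2 were among those listed at 0, and the summed level of the list was 9.5 to 10.8 CPM with LAA+ATRA, 8.46 to 10.1 with ATRA, 6.75 to 9.46 with LAA and 9.6 to 11.3 in vehicle. The most abundant members of that list went opposite ways: SYP, a synaptic vesicle protein, had means of 7.8 CPM with LAA+ATRA and 7.28 with ATRA, against 3.8 with LAA and 4.97 in vehicle, and INSM1, a neuroendocrine transcription factor, had 1.38 and 1.18 CPM with those 2 treatments, against 3.32 with LAA and 4.37 in vehicle. The summed level of 5 B cell markers, of which MS4A1 was listed at 0, was 15.3 to 16.9 CPM with LAA+ATRA and 16.1 to 16.5 with ATRA, against 21.5 to 23.4 with LAA and 23.3 to 26 in vehicle. The part of these lists in the results was not tested. Summed levels of T cell, epithelial and fibroblast markers were at most 1.29 CPM in any library. Among 5 erythroid markers the sum ran from 4.09 to 6.83 CPM, nearly all of it KLF1, while HBB was listed at 0.

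PDYN, whose dynorphin peptides act mainly at the kappa opioid receptor, was low in every library that had ATRA. Its level was 0.447 and 0.402 CPM with LAA+ATRA (8 and 8 counts) and 0.442 and 0.431 CPM with ATRA (8 and 10 counts). It was 7.69 and 7.14 CPM with LAA (155 and 136 counts) and 7.75 and 7.66 CPM in vehicle (161 and 158 counts). The libraries with ATRA and those without it did not overlap, and the LAA and vehicle libraries overlapped. Between the LAA+ATRA and LAA libraries, PDYN was 17.3-fold lower with LAA+ATRA (log2 fold change -4.11 ± 0.3, adjusted p = 8.02e-07 in edgeR's quasi-likelihood test over all genes). Its level with ATRA was 5.67% of that in vehicle, and with LAA+ATRA it was 5.73% of that with LAA. In bulk RNA, fewer cells that express a gene and less of its RNA per cell cannot be told apart. PDYN (ENSG00000101327) lies on chromosome 20 from 1978757 to 1994285 on the minus strand of GRCh38 in the GENCODE 29 annotation, where the antisense gene PDYN-AS1 overlaps it. Whether the authors' counting used strand is not given in the sources used here, and PDYN-AS1 had 43 counts over all libraries, with means of 0.131 CPM with LAA+ATRA, 0.471 with ATRA, 0.283 with LAA and 0.193 in vehicle.

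GAL, the galanin precursor, was the most abundant of the 5 per unit of length, and its levels with LAA+ATRA lay above those with ATRA. It reached 9.06 and 9.81 CPM with LAA+ATRA (162 and 195 counts) and 3.26 and 4.53 CPM with ATRA (59 and 105 counts). Without ATRA it had 56.2 and 60.2 CPM with LAA (1132 and 1146 counts) and 52.1 and 56 CPM in vehicle (1082 and 1155 counts). The order was therefore ATRA, then LAA+ATRA, then a large gap to vehicle and LAA, whose nearest libraries differed by less than the spread within either group. GAL fell 6.16-fold with LAA+ATRA against LAA (-2.62 ± 0.14, adjusted p = 4.64e-08, edgeR). Its level with LAA+ATRA was 16.2% of that with LAA, while with ATRA it was 7.21% of that in vehicle. GAL (ENSG00000069482) lies on chromosome 11 from 68683779 to 68691175 on the plus strand.

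CCN3 followed PDYN closely, at a higher level. It had 1.96 and 2.67 CPM with LAA+ATRA (35 and 53 counts) and 2.1 and 2.03 CPM with ATRA (38 and 47 counts), and these groups overlapped. It had 26.2 and 29.8 CPM with LAA (528 and 568 counts) and 32.9 and 31 CPM in vehicle (683 and 640 counts), so both LAA libraries lay a little below both vehicle libraries. CCN3 fell 12-fold with LAA+ATRA against LAA (-3.59 ± 0.18, adjusted p = 2.64e-08, edgeR). Its level was 8.25% of that with LAA, and with ATRA it was 6.46% of that in vehicle. CCN3 (ENSG00000136999) lies on chromosome 8 from 119416306 to 119424353 on the plus strand.

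SUGCT was lowest with ATRA and less low with LAA+ATRA. Its level was 1.17 and 1.86 CPM with LAA+ATRA (21 and 37 counts), and 0.442 and 0.302 CPM with ATRA (8 and 7 counts). It was 5.21 and 7.04 CPM with LAA (105 and 134 counts), on either side of the 5.78 and 6.31 CPM in vehicle (120 and 130 counts). SUGCT fell 4-fold with LAA+ATRA against LAA (-2 ± 0.32, adjusted p = 0.000373, edgeR), to 24.8% of the level with LAA, while its level with ATRA was 6.16% of that in vehicle. The gene (ENSG00000175600) spans 725.8 kb of chromosome 7 from 40134977 to 40860763 on the plus strand. It overlaps the antisense gene AC004988.1, which had 37 counts over all libraries.

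TCEA3 varied widely between replicates of the LAA+ATRA and vehicle groups. Its level was 2.01 and 0.402 CPM with LAA+ATRA (36 and 8 counts), so that 1 library of this group lay close to the ATRA level of 0.387 and 0.216 CPM (7 and 5 counts) and the other did not. It was 8.34 and 7.93 CPM with LAA (168 and 151 counts) and 5.92 and 9.27 CPM in vehicle (123 and 191 counts), with the LAA values inside the vehicle range. TCEA3 fell 6.84-fold with LAA+ATRA against LAA (-2.77 ± 0.48, adjusted p = 0.000712, edgeR). That log2 fold change was -4.3 when LAA+ATRA replicate 1 was left out (adjusted p = 0.000114, edgeR) and -2.01 when the other LAA+ATRA library was left out (adjusted p = 0.00221, edgeR). With ATRA alone its level was 3.97% of that in vehicle. TCEA3 (ENSG00000204219) lies on chromosome 1 from 23381061 to 23424740 on the minus strand.

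**Figure D1:**
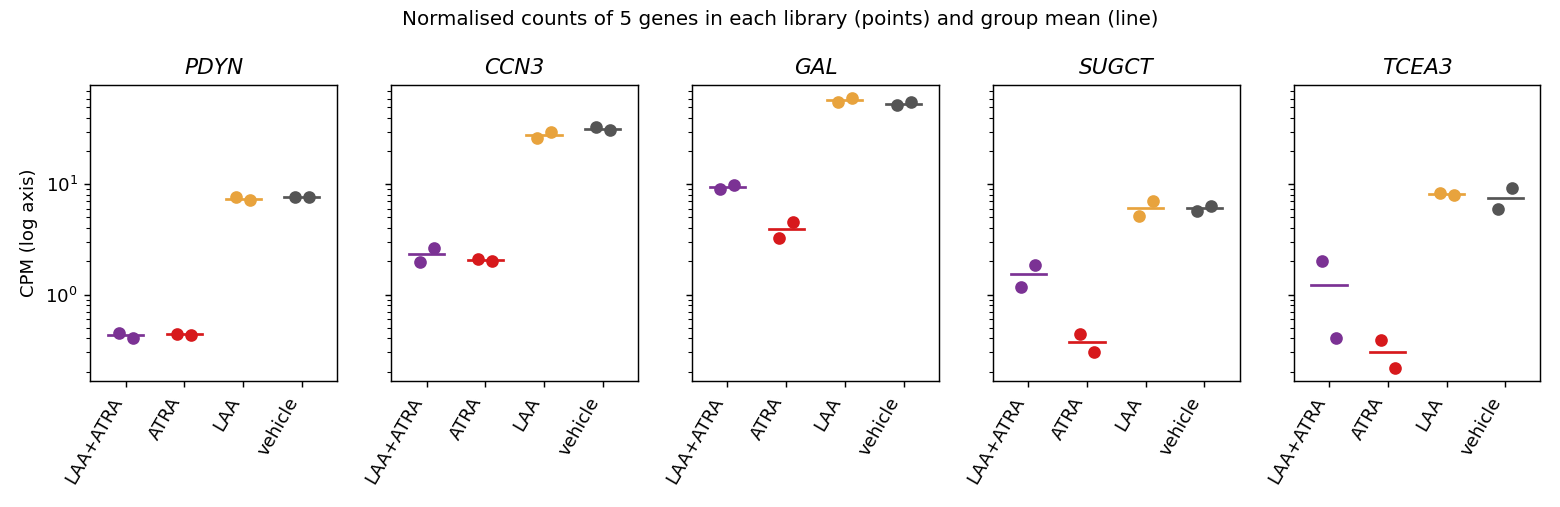
CPM (log axis) of each of the 5 genes in the 8 libraries, with 1 point per library and a line at the mean of each group. All 4 libraries with ATRA lie below all 4 without it for every gene, GAL and SUGCT lie higher with LAA+ATRA than with ATRA, and the TCEA3 libraries with LAA+ATRA lie apart at 2.01 and 0.402 CPM.

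The promoters that could be shown are those of PDYN and SUGCT, printed because both genes were low in every library with ATRA and SUGCT begins next to MPLKIP, whose log2 fold change for LAA+ATRA against LAA was -0.33. RefSeq promoter sequences on GRCh38.p14 matched 2 of the 5 genes by symbol. CCN3, GAL and TCEA3 had no entry in that table. The 250 bases before the start in that RefSeq set are given 5′ to 3′ on the strand of the gene, with matches to the motifs named here in capitals. The PDYN sequence covers chr20:1994286-1994535 on the minus strand and the SUGCT sequence covers chr7:40134755-40135004 on the plus strand.
PDYN: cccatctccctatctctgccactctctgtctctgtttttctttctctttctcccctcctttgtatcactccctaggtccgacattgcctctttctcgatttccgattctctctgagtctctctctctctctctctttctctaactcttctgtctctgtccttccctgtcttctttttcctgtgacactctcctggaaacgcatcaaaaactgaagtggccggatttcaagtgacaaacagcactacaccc
SUGCT: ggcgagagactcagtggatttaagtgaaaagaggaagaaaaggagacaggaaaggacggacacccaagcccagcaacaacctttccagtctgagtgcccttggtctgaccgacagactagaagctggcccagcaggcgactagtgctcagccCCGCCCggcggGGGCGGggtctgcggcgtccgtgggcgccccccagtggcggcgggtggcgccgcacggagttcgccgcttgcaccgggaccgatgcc
The SUGCT stretch held 65.6% G and C and 21 CpG dinucleotides, and the PDYN stretch 47.2% and 5, against medians of 58% and 11 over 35116 promoters. Both strands were searched for 7 motifs. The nuclear receptor site AGGTCA was present in 12.1% of all promoters, the E-box CACGTG in 6.34%, the TATA box TATAAA in 10.7% and the GC box GGGCGG in 42.6%. The motif CCAAT was present in 32%, the AP-1 site TGACTCA in 4.2% and the cAMP response element TGACGTCA in 1.65%. SUGCT held the GC box once on each strand, with no overlap between matches, and none of the 7 motifs was found in the PDYN window.

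The effect of ATRA on cells that also received LAA was tested between the LAA+ATRA and LAA libraries, with the limit on the choice of genes given at the start. All 5 genes were called lower with LAA+ATRA against LAA at an adjusted p under 0.05 (edgeR), where 18% of all genes tested were called lower. Both libraries with LAA+ATRA were below both with LAA for all 5 genes, as they were for 34.4% of all genes. Their median log2 fold change of -2.77 stood beside a median of 0 over all genes, and all 5 were at least 4-fold lower, as 1.79% of all genes were, with SUGCT at that limit. By log2 fold change PDYN ranked 52 from the bottom of 14995 genes, CCN3 68, TCEA3 131, GAL 150 and SUGCT 269. In the comparison that chose them, ATRA against vehicle, the log2 fold changes were -4.67 ± 0.58 for TCEA3, -4.12 ± 0.3 for PDYN, -4.02 ± 0.38 for SUGCT, -3.95 ± 0.18 for CCN3 and -3.78 ± 0.15 for GAL, beside 2.39% of all genes that were at least 4-fold lower and 21% that were called lower. Both ATRA libraries were below both vehicle libraries for all 5 genes and for 35.9% of all genes, from which nothing is read, since this comparison chose them. The 5 genes had at least 6.04 CPM in vehicle and a log2 fold change of -3.78 or lower, and 10 genes tested met both bounds, of which 8 had a symbol. GAL was just inside, and just outside stood ADM2 at -3.75, LMO1 at -3.72 and DNAAF3 at -3.67.

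LAA changed none of the 5 genes detectably in the absence of ATRA. For LAA against vehicle the log2 fold changes were -0.05 for PDYN (95% interval -0.54 to 0.43), -0.19 for CCN3 (-0.49 to 0.11), 0.11 for GAL (-0.16 to 0.37), 0.02 for SUGCT (-0.6 to 0.63) and 0.1 for TCEA3 (-0.78 to 0.98). Adjusted p values in edgeR lay between 0.507 and 0.982, and none of the 5 was called, where 0.0267% of all genes were. That share is 4 genes, and the number depended on the fit: it was 703 with DESeq2, 2187 with only the compared libraries and 0 to 469 leaving out 1 library, while none of the 5 was called in any of these. Of the 5, 0 had an unadjusted p under 0.05 in edgeR, where 2833 of the 14995 genes tested did, so nothing is read from that count. DESeq2 called 0 of the 2 for which it gave an adjusted p. The vehicle libraries had a part in choosing the genes.

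With ATRA present, GAL and SUGCT had higher levels when LAA was added, and the groups overlapped for PDYN and CCN3. The ATRA libraries chose the genes as low, which favours a higher value in any group set against them. This comparison is therefore given as a description, and its intervals are not read as a test. GAL averaged 9.43 ± 0.529 CPM with LAA+ATRA and 3.9 ± 0.896 CPM with ATRA, 2.39-fold higher (log2 fold change 1.26 ± 0.16, 95% interval 0.9 to 1.62). SUGCT averaged 1.52 ± 0.485 CPM with LAA+ATRA and 0.372 ± 0.0993 CPM with ATRA, 4.12-fold higher (2.04 ± 0.42, 1.13 to 2.95). Both LAA+ATRA libraries lay above both ATRA libraries for GAL, SUGCT and TCEA3, for TCEA3 narrowly (0.402 against 0.387 CPM between the nearest libraries). The share of all genes for which this held is not given here, so nothing is read from it. In edgeR 2 of the 5 passed the threshold, as 0.493% of all genes did in that direction, from which nothing is read. TCEA3 had a log2 fold change of 1.99 (95% interval 0.5 to 3.49), which was 0.45 without LAA+ATRA replicate 1 and 2.76 without the other. PDYN had -0.04 (-0.92 to 0.84) and CCN3 0.17 (-0.3 to 0.65).

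The interaction, which is the effect of ATRA with LAA minus its effect without LAA on the log2 scale, holds the comparison that chose the genes and is given without a test. It was 2.02 (95% interval 0.92 to 3.13) for SUGCT, 1.89 (0.15 to 3.64) for TCEA3, 1.15 (0.71 to 1.6) for GAL, 0.36 (-0.2 to 0.92) for CCN3 and 0.01 (-1.04 to 1.07) for PDYN, with a median of 1.15. These intervals are not adjusted for the number of genes. The choice of genes as low with ATRA also favours a higher interaction, so the intervals are not read as a test. Across the 14995 genes tested 1 was called for the interaction, and it was none of these 5. Against vehicle, the log2 fold changes with LAA+ATRA were -4.16 for PDYN, -3.78 for CCN3, -2.67 for TCEA3, -2.52 for GAL and -1.98 for SUGCT.

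**Figure D2:**
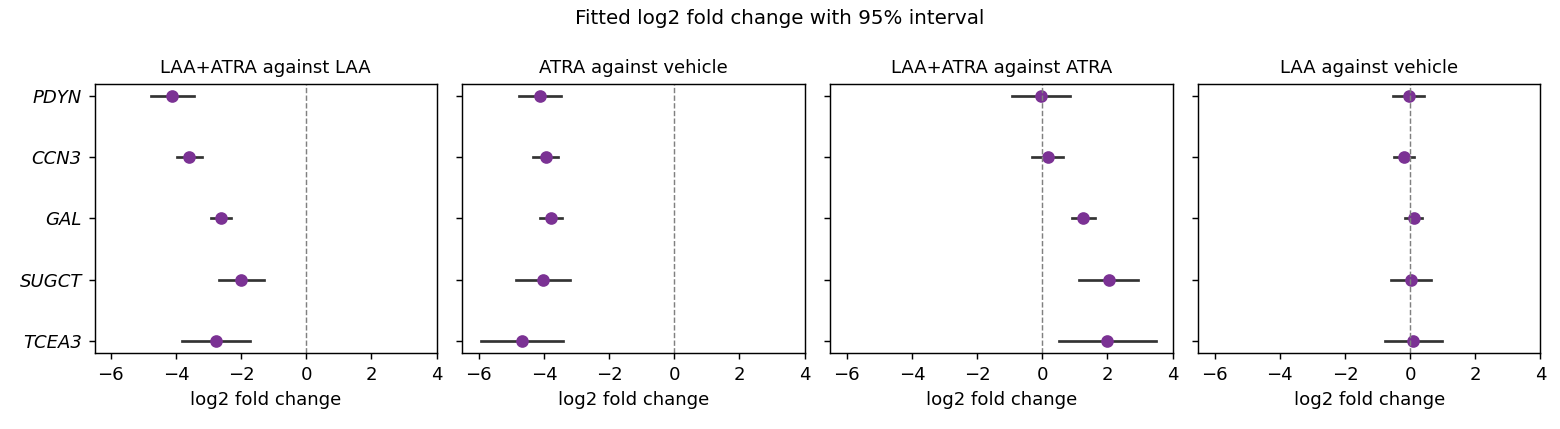
Fitted log2 fold changes (points) with 95% intervals (lines) of the 5 genes in 4 comparisons. All intervals for LAA+ATRA against LAA lie below 0, those for LAA against vehicle all span 0, and for LAA+ATRA against ATRA the GAL and SUGCT points lie at 1.26 and 2.04. The ATRA libraries had a part in choosing the genes, so intervals of comparisons that use them are not read as tests.

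Levels were compared between genes per unit of length, in the deposited FPKM values. With LAA+ATRA the means were 19.2 ± 1.96 FPKM for GAL, 1.49 ± 0.45 for CCN3, 1.27 ± 0.436 for SUGCT, 0.883 ± 0.848 for TCEA3 and 0.195 ± 0.0123 for PDYN, and CCN3, SUGCT and TCEA3 overlapped. With ATRA the order was GAL at 8.37 ± 2.62 FPKM, CCN3 at 0.95 ± 0.048, SUGCT at 0.47 ± 0.158, TCEA3 at 0.212 ± 0.0835 and PDYN at 0.199 ± 0.00198, where TCEA3 and PDYN overlapped. With LAA they were 117 ± 2.95 for GAL, 16.7 ± 0.125 for CCN3, 5.82 ± 0.297 for TCEA3, 5.53 ± 0.256 for SUGCT and 3.69 ± 0.0605 for PDYN, and TCEA3 and SUGCT overlapped. In vehicle they were 112 ± 4.7 for GAL, 16.4 ± 2.34 for CCN3, 5.47 ± 1.7 for TCEA3, 5.09 ± 0.265 for SUGCT and 5.01 ± 0.464 for PDYN, and the last 3 overlapped. GAL was at the top in all groups and CCN3 had the next highest mean in all groups. By FPKM with LAA, 7.18% of the genes tested were at or above GAL, 34.6% at or above CCN3 and 64.1% at or above PDYN.

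Within the 5 genes, PDYN and CCN3 had the most similar profile and GAL and SUGCT the next. Likeness was measured as the root mean square difference of log2 CPM over the 8 libraries after centring each gene on its own mean, and a smaller value means a more similar profile. It was 0.187 between PDYN and CCN3, 0.368 between GAL and SUGCT, and 0.85 between PDYN and SUGCT, the pair furthest apart. Among all genes with a symbol, NOG, which encodes the BMP antagonist noggin, was most like PDYN at 0.129, beside a median of 1.93 from PDYN to all others, followed by CCN3 and then TERT, the telomerase catalytic subunit, at 0.19. NOG averaged 0.88 CPM with LAA+ATRA, 1.01 with ATRA, 16.1 with LAA and 15.6 in vehicle. PDYN, NOG (0.277) and TERT (0.287) were also most like CCN3. GSG1 (0.262), PLAC8 (0.31) and FAM135B (0.327) were most like GAL. PLAC8 averaged 8.38 CPM with LAA+ATRA, 5.02 with ATRA, 46.1 with LAA and 44.7 in vehicle. KCNH2, a voltage-gated potassium channel (0.32), WNT3, a secreted Wnt ligand (0.352), and GAL were most like SUGCT. KCNG1, a potassium channel subunit (0.346), SPINT2, a serine protease inhibitor (0.372), and NTN1, the guidance protein netrin-1 (0.549), were most like TCEA3. The libraries with ATRA stand apart from the others for all of these genes, so these values rest largely on that split. In the ATRA group TERT averaged 0.142 CPM, GSG1 0.12, FAM135B 0.0984, KCNG1 0.0708, SPINT2 0.0492 and WNT3 0.0277. At such levels the prior count of 2 added before taking logs sets much of the log2 value, so their likeness is poorly resolved.

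The nearest tested protein-coding genes on the chromosome had log2 fold changes between -0.64 and 0.81 for LAA+ATRA against LAA. SUGCT and MPLKIP start 0.3 kb apart on opposite strands, and MPLKIP, a nuclear protein mutated in a form of trichothiodystrophy, averaged 59.8 CPM with LAA+ATRA and 75.3 with LAA (-0.33 ± 0.11, adjusted p = 0.0276, edgeR). On either side of PDYN, SIRPA, an inhibitory receptor of myeloid cells, rose with LAA+ATRA against LAA (0.81 ± 0.1, adjusted p = 5.71e-05, edgeR) and the kinase STK35 fell (-0.47 ± 0.12, adjusted p = 0.00772, edgeR). Beside TCEA3, the zinc finger gene ZNF436 fell (-0.64 ± 0.22, adjusted p = 0.0391, edgeR), and ASAP3 had -0.49 ± 0.51 (adjusted p = 0.488, edgeR). Beside GAL, PPP6R3 had 0.1 ± 0.11 and TESMIN -0.11 ± 0.12, with adjusted p of 0.551 and 0.541 in edgeR. For ATRA against vehicle, however, TESMIN fell (-0.7 ± 0.12, adjusted p = 0.000668, edgeR), and PPP6R3 was not called (0.17 ± 0.11, adjusted p = 0.259, edgeR). For CCN3, MAL2 was listed at 0 and ENPP2 had 31 counts in all, and INHBA beyond SUGCT was listed at 0. MPLKIP and ZNF436 lost their calls under 8 and 6 of 16 other settings, and STK35 under 3. Among these, MPLKIP was lost without any 1 of the vehicle or LAA libraries or LAA+ATRA replicate 2 (adjusted p = 0.054 to 0.199, edgeR). STK35 was lost without LAA replicate 2 (0.0806) or LAA+ATRA replicate 1 (0.0513), and ZNF436 without LAA replicate 1 (0.238) or LAA+ATRA replicate 1 (0.286). The log2 fold change of ZNF436 was -0.35 without LAA+ATRA replicate 1 and -0.99 without the other.

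**Figure D3:**
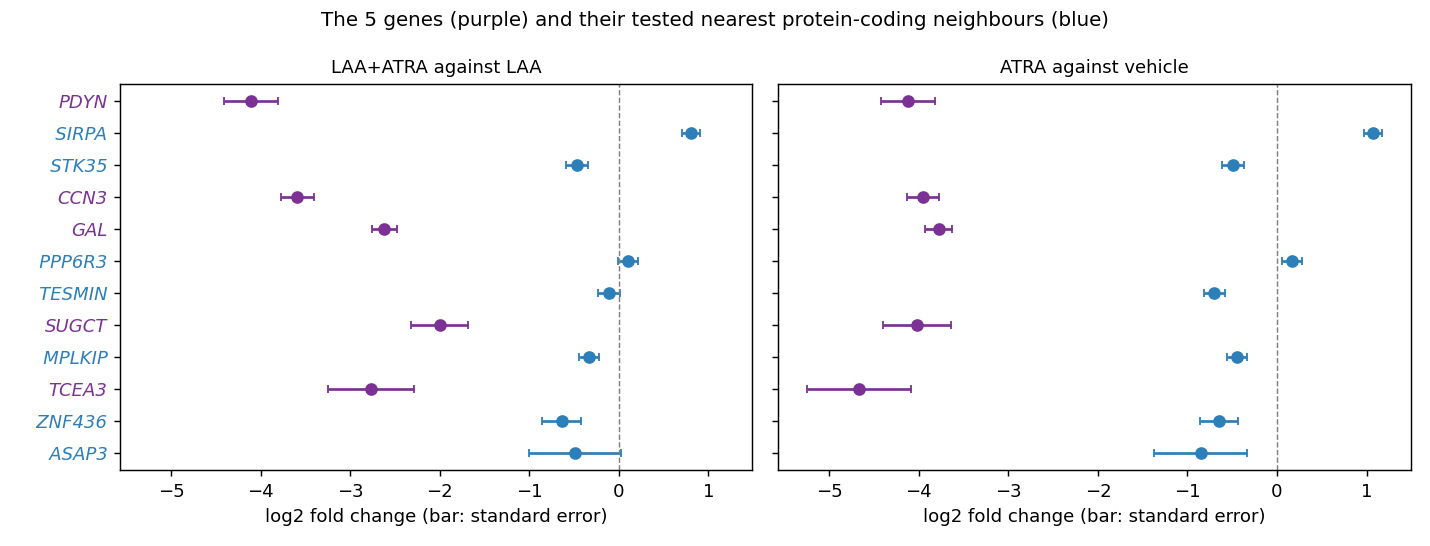
Log2 fold changes with standard errors of the 5 genes (purple) and their tested neighbours (blue), for LAA+ATRA against LAA and for ATRA against vehicle. All 5 genes lie at -2 or lower in both panels, and the neighbours lie between -0.85 and 1.07.

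Most peptides and receptors related to PDYN and GAL had too few counts to be tested. In a list of 9 other opioid peptides and receptors, 4 were tested for LAA+ATRA against LAA, 1 rose and none fell, beside 18.4% of all genes called higher and 18% called lower. The gene that rose was OGFR, which encodes a receptor for the enkephalin known as opioid growth factor, at 227 ± 45.2 CPM with LAA+ATRA against 112 ± 6.09 CPM with LAA (2.03-fold, adjusted p = 6.03e-05, edgeR). OPRK1, the kappa receptor, was named after its values were seen, and averaged 1.18 CPM with LAA+ATRA, 1.48 with ATRA, 0.663 with LAA and 1.31 in vehicle (adjusted p = 0.265 for LAA+ATRA against LAA, edgeR). Of 5 other galanin peptides and receptors, 1 was tested and not called: GALR3, a galanin receptor, had 50 counts in all and averaged 0.0782 CPM with LAA+ATRA and 0.59 with LAA (adjusted p = 0.0623, edgeR). GALR2 had 23 counts in all.

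Of 17 genes that process peptide precursors, 10 were tested, and 2 rose and 1 fell with LAA+ATRA against LAA, which is near the 18.4% and 18% of all genes. Their median log2 fold change was 0.36. CPD, a carboxypeptidase of the trans-Golgi network, averaged 290 ± 16.2 CPM with LAA+ATRA, against 122 ± 3.25 CPM with LAA (2.38-fold higher, adjusted p = 1.48e-06, edgeR). PCSK7, a proprotein convertase, rose 1.34-fold (adjusted p = 0.0169, edgeR), and PAM, which amidates the end of peptides, fell (-0.43 ± 0.13, adjusted p = 0.0192, edgeR). PCSK7 and PAM lost their calls under 5 and 6 of 16 other settings, which include leaving out LAA replicate 2 (adjusted p = 0.135 and 0.233, edgeR) or LAA+ATRA replicate 2 (0.0633 and 0.0571) and, for PAM, LAA+ATRA replicate 1 (0.0878). The convertases PCSK1 and PCSK2 and the carboxypeptidase CPE, which process peptides in neuroendocrine cells, were named after their values were seen, and all 3 were listed at 0. Of 26 other secreted peptide precursors 7 were tested. With LAA+ATRA against LAA 2 fell and none rose, beside 18% of all genes called lower and 18.4% called higher. ADM2, the precursor of intermedin, fell 8.69-fold to 0.69 ± 0.0517 CPM with LAA+ATRA, against 6.04 ± 0.821 CPM with LAA (adjusted p = 9.61e-06, edgeR). ADM, the adrenomedullin precursor, fell 3.49-fold to 1.27 ± 0.807 CPM, against 4.42 ± 0.359 CPM with LAA (adjusted p = 0.0121, edgeR). That call was lost under 3 of 16 other settings, and the log2 fold change of -1.8 was -2.62 without LAA+ATRA replicate 1 and -1.26 without the other. For ATRA against vehicle ADM was not called (-0.62 ± 0.45, adjusted p = 0.296, edgeR).

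The rest of the CCN family was near 0, while 4 integrin chains listed with CCN3 were called higher with LAA+ATRA than with LAA. CCN1, CCN2, CCN4, CCN5 and CCN6 had 0 to 7 counts each over all libraries and were not tested. Of 8 genes for receptors and binding partners of CCN3, 6 were tested, and 4 rose and none fell with LAA+ATRA against LAA, beside 18.4% and 18% of all genes, with a median log2 fold change of 0.78. The integrin chain ITGA6 reached 508 ± 61.3 CPM with LAA+ATRA, against 135 ± 3.54 CPM with LAA (3.75-fold, adjusted p = 9.31e-08, edgeR). ITGA5 rose 1.99-fold (adjusted p = 1.13e-05, edgeR) and ITGB5 2.07-fold (adjusted p = 0.00481, edgeR). ITGAV had 0.58 ± 0.2 (adjusted p = 0.0439, edgeR), and 0.4 without LAA replicate 2. It lost the call under 8 of 16 other settings, while ITGB5 lost it on FPKM. ITGAV averaged 7.33 CPM with LAA+ATRA, 9.54 with ATRA, 4.91 with LAA and 8.31 in vehicle, so its LAA+ATRA level was not above vehicle. The integrin chain ITGB1 (0.23 ± 0.1, adjusted p = 0.11, edgeR) and the receptor NOTCH1 (0.09 ± 0.15, adjusted p = 0.696, edgeR) were not called, and ITGB3 and the gap junction protein GJA1 had 1 and 3 counts in all. These 4 genes were named after their values were seen.

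Of 15 other genes of lysine and glutarate breakdown, 12 were tested, and 5 fell and none rose with LAA+ATRA against LAA, beside 18% and 18.4% of all genes, with a median log2 fold change of -0.22. DHTKD1, the 2-oxoadipate dehydrogenase of lysine breakdown, fell 1.71-fold (adjusted p = 0.000373, edgeR). HADH, an enzyme of fatty acid oxidation, fell 1.54-fold (adjusted p = 0.000739, edgeR), and ETFA, an electron carrier subunit, fell by 0.44 on the log2 scale (adjusted p = 0.00513, edgeR), a call lost without LAA replicate 1 (0.0637). GCDH, the glutaryl-CoA dehydrogenase that uses the product of SUGCT, fell by 0.38 on the log2 scale (adjusted p = 0.0125, edgeR) and was named after its value was seen. Of 8 genes of CoA transfer and succinate metabolism, 7 were tested, and 3 fell and none rose: SUCLG2 (-0.81 ± 0.12, adjusted p = 0.000258, edgeR) and SUCLA2 (-0.37 ± 0.11, adjusted p = 0.0192, edgeR), both subunits of succinyl-CoA synthetase, and OXCT1 (-0.48 ± 0.12, adjusted p = 0.00944, edgeR), which transfers coenzyme A to ketone bodies. OXCT1 lost its call under 5 of 16 other settings, among them without LAA replicate 2 (0.128) or LAA+ATRA replicate 2 (0.0632). SUCLA2 lost it under 3, among them without LAA replicate 1 (0.171) or LAA+ATRA replicate 1 (0.103).

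Of 9 TFIIS and TCEA relatives 5 were tested, and 1 fell and 1 rose with LAA+ATRA against LAA, near the shares over all genes. TCEA1, the widely expressed TFIIS, fell 1.59-fold to 112 ± 0.613 CPM with LAA+ATRA, against 178 ± 5.09 CPM with LAA (adjusted p = 0.000287, edgeR). TCEANC, which carries a TFIIS-like domain, rose 2.4-fold to 5.75 ± 1.4 CPM, against 2.4 ± 0.0478 CPM with LAA (adjusted p = 0.00278, edgeR). That call was lost under 2 of 16 other settings. TCEANC averaged 5.21 CPM with ATRA and 3.6 in vehicle, and was not called between them (0.53 ± 0.26, adjusted p = 0.118, edgeR). All 26 genes of RNA polymerase II elongation were tested, and 4 fell and 5 rose, near the 18% and 18.4% of all genes, with a median log2 fold change of 0. Among them the elongation factor subunit SUPT4H1 (0.58 ± 0.11, adjusted p = 0.00126, edgeR) and the kinase CDK9 (0.41 ± 0.11, adjusted p = 0.00934, edgeR) rose, and the NELF subunit NELFA (-0.51 ± 0.1, adjusted p = 0.00187, edgeR) and the PAF complex partner RTF1 (-0.37 ± 0.1, adjusted p = 0.0093, edgeR) fell. CDK9 lost its call under 3 of 16 other settings, without LAA replicate 1 (0.0748), LAA replicate 2 (0.0533) or LAA+ATRA replicate 1 (0.0634), and RTF1 under 4, on FPKM and without LAA replicate 2 (0.111). Over all lists, 16 of 78 tested genes fell and 13 rose, also near those shares. For ATRA against vehicle, 21% of all genes were called lower and 21.9% higher. The elongation list had 4 lower and 7 higher there, and the lysine and glutarate list 6 lower and none higher. The CCN3-binding list had 4 higher and none lower, which included ITGB1 but not ITGAV (log2 fold change 0.2, adjusted p = 0.439, edgeR).

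**Figure D4:**
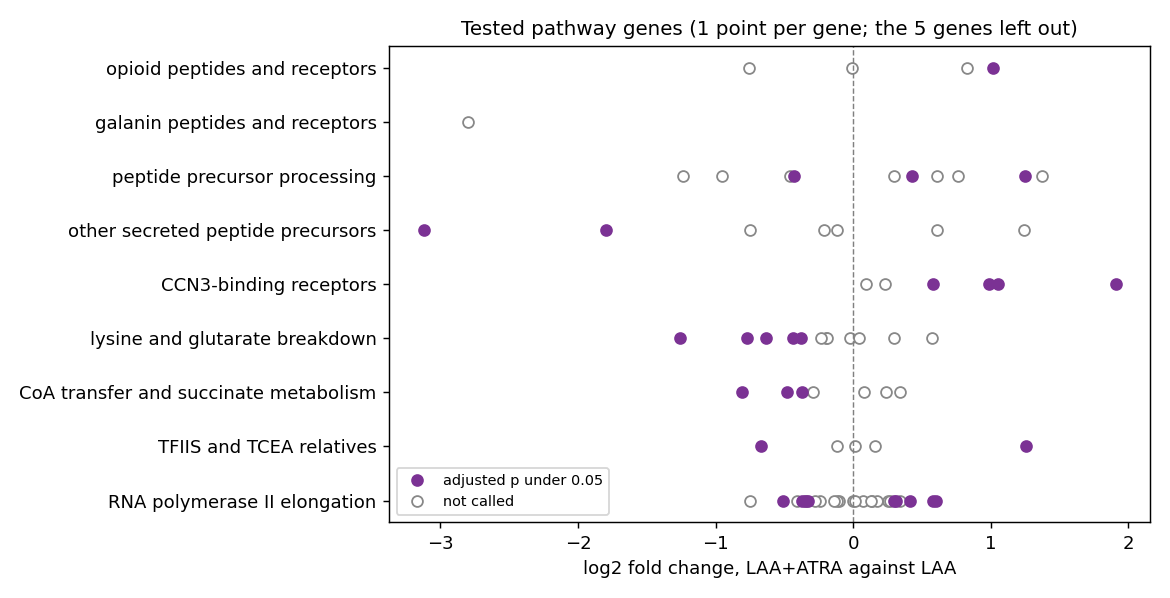
Log2 fold change for LAA+ATRA against LAA of each tested gene in the pathway lists, with the 5 genes left out (filled: adjusted p under 0.05 in edgeR, open: not called). The lists hold 16 called genes below 0 and 13 above 0, from ADM2 at -3.12 to ITGA6 at 1.91.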

How the data were processed

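RNA-sequencing values of 8 U-937 libraries were used, 2 per group, grouped by the treatment in the labels. The deposited estimated counts per Ensembl gene carry decimals and are not scaled between libraries; Salmon 1.8.0, DESeq2 1.36.0 and, as builds, hg38 and GRCh38 stand in the submitters' processing notes. The FPKM values deposited by the authors use a gene length that differs between libraries, and their scaling is not given in the sources used here, nor are the annotation release and strand setting. Counts were rounded, which changed 16.5% of the values, filtered with filterByExpr and scaled by TMM in edgeR 4.0.16 (R 4.3.3). A quasi-likelihood model with a mean per group used all 8 libraries (4 residual degrees of freedom), since 2 libraries per group say little on spread. Tests were two-sided, adjusted by Benjamini-Hochberg over 14995 genes per comparison, and calls were made at an adjusted p under 0.05. Values after ± are standard errors for log2 fold changes and SDs for levels. The procedure was tested on simulated data.

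The 5 genes, the pathway lists and the tests were chosen with earlier results of these data known. List genes were named as up to 4 called for LAA+ATRA against LAA by adjusted p, averaging 1 CPM or more in the group where they were higher, or the 2 most abundant where none was called, and each gene's 3 nearest profiles and nearest protein-coding neighbours were named. A few genes that these rules name are not reported here. Log2 CPM for profiles used a prior count of 2. Positions came from GENCODE 29, which may differ from the authors' annotation. Alternatives were DESeq2 1.42.0, RLE size factors, no low-count filter, a replicate block, only the compared libraries, limma 3.58.1 on log2(FPKM + 1) or log2(FPKM + 0.1), and leaving out each library. Replicates differed by more than sampling noise in all groups (chi-square per gene 5.02 to 21.8).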

Additional observations from a re-analysis of the deposited data

How the results depend on the processing

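All 5 genes stayed called lower for LAA+ATRA against LAA under 16 alternatives, and none was called for LAA against vehicle under any of them. For LAA+ATRA against ATRA, where the choice of genes favours a higher value, the number called was 2, against 1 with DESeq2, which gave no adjusted p for PDYN, SUGCT or TCEA3 there, 1 with the replicate block, and 0 with only the compared libraries or on FPKM with either pseudocount or no filter. It was 3 with no low-count filter, where TCEA3 also passed the threshold. With the replicate block SUGCT did not pass it, and no other call on the 5 genes changed with that block. SUGCT did not pass it under 13 of the 15 alternatives that gave it a value, nor GAL under 4 of 16. Leaving out 1 library, the log2 fold change was 1.67 to 2.32 for SUGCT and 1.06 to 1.53 for GAL. Since the ATRA libraries chose the genes as low, nothing is read from these numbers. Deviations of same-numbered replicates from their group means correlated across genes at -0.07 to 0.08, so the numbers were not used as pairs. The number of genes called over the whole table for LAA+ATRA against ATRA was 152, against 696 with DESeq2, 903 with no low-count filter, 30 with the replicate block, 15 with only the compared libraries and 4 to 27 on FPKM, and 6 to 172 leaving out 1 library. For LAA against vehicle it was 4, against 703 with DESeq2, 2187 with only the compared libraries, 828 with no low-count filter, 2 with the replicate block, 2 to 7 on FPKM and 0 to 469 leaving out 1 library. For LAA+ATRA against LAA it was 5451, against 3352 on log2(FPKM + 1) without a filter and 3660 to 5872 leaving out 1 library.

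The median log2 fold change of the 5 genes was -2.39 in place of -4.02 for ATRA against vehicle on log2(FPKM + 1), filtered or not, where the pseudocount compresses low values. For LAA+ATRA against vehicle it was -2.33 in place of -2.67 on that scale, and -3.58 to -2.47 leaving out 1 library. For the interaction it was 0.46 in place of 1.15 on that scale, and 0.57 to 1.42 leaving out 1 library. Pathway genes called for LAA+ATRA against LAA numbered 16 lower and 13 higher, against 10 and 8 on log2(FPKM + 1) without a filter, and 9 to 19 lower and 9 to 14 higher leaving out 1 library. Of 27 named pathway genes and neighbours called there, 13 kept the call under all alternatives.

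Signs turned only for values that were not called. For LAA against vehicle CCN3 was 0.03 on FPKM in place of -0.19, SUGCT ran from -0.21 without LAA replicate 2 (and -0.04 without vehicle replicate 1) to 0.22 in place of 0.02, and TCEA3 from -0.19 without vehicle replicate 1 to 0.45 in place of 0.1. For LAA+ATRA against ATRA, PDYN was 0.03 and CCN3 -0.08 without LAA+ATRA replicate 2, and -0.12 and 0.37 without LAA+ATRA replicate 1, in place of -0.04 and 0.17. For LAA+ATRA against LAA on FPKM, PPP6R3 was -0.08 to -0.09, TESMIN 0.04 and ASAP3 0.24 without a filter. The cause was not tested. PDYN, SUGCT and TCEA3 had 5 to 10 counts per ATRA library, which limits the precision of their fold changes.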

Other observations

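The deposited counts and FPKM values imply a gene length per library, and for some of the 5 genes this length differed between libraries. The length was computed as CPM divided by FPKM in kb, after scaling each library by the median over 10640 genes with at least 50 counts in every library. For PDYN it was 2.09 and 1.9 kb with LAA, against 1.46 and 1.64 kb in vehicle, so that PDYN averaged 3.69 ± 0.0605 FPKM with LAA and 5.01 ± 0.464 FPKM in vehicle without overlap, while its CPM values overlapped. The log2 ratio of that length, LAA against vehicle, was 0.362 for PDYN, beside a median size of 0.0464 and a 95th percentile of 0.316 over the 10640 genes. For CCN3 the LAA+ATRA libraries had 1.06 and 2.29 kb, and the library with fewer counts (35 against 53) had the higher FPKM (1.81 against 1.17). For SUGCT the ATRA libraries had 1.24 and 0.523 kb at 8 and 7 counts. TCEA3 lay between 1.33 and 1.43 kb in all libraries, and GAL between 0.447 and 0.503 kb. Which transcripts were counted was not analysed here.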
